A study of Mus musculus with 2 samples.

Results

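Potassium channel genes were examined in B16F10 cells, a mouse melanoma line. The members were all genes on the array whose symbol is Kcn followed by letters and a number, with 1 probe set per gene. There were 87 such genes among the 19505 named genes, and each had a single probe set. They comprised 15 inward rectifier genes (Kcnj), 14 two-pore genes (Kcnk), 36 voltage-gated alpha subunit genes, 7 calcium-activated and Slo-related genes and 15 genes of auxiliary subunits, which form no pore.

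The NRF3 cells carried an NRF3 expression plasmid. NRF3, the product of Nfe2l3, is a cap'n'collar transcription factor. The GFP cells carried a plasmid for GFP, a fluorescent protein. Both were stable populations selected with puromycin through a cotransfected resistance vector, and both received forskolin, an activator of adenylate cyclase, for 5 days. The comparison therefore has no arm without forskolin. Each population was measured on 1 array, the labels name no separate clones or cultures, so differences carry neither an error nor a p-value. Every value is a log2 RMA value (robust multi-array average) as deposited, and every difference is the NRF3 value minus the GFP value, so each one compares 2 RNA samples. With so few arrays the precision is low. In bulk RNA, fewer cells expressing a gene and less RNA per cell cannot be told apart.

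Potassium channels let potassium leave or enter the cell along its gradient and set the resting membrane potential. Inward rectifiers and two-pore channels carry current near rest, voltage-gated channels open on depolarization, and calcium-activated channels open when cytosolic calcium rises. Auxiliary subunits change the gating or surface delivery of pore-forming subunits. Kcnj13 encodes the inward rectifier Kir7.1, which is known from the retinal pigment epithelium and choroid plexus. In zebrafish, mutations of kcnj13 alter the pattern of pigment cells in the skin.

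The cells carried the melanocyte markers of their label. All 9 melanocyte markers listed, among them Tyr, Tyrp1, Dct, Pmel and Sox10, lay between 10.3 and 18.9 on the NRF3 array and between 10.3 and 18.9 on the GFP array. By the 1.5-fold rule 3 of the 9 were higher in the NRF3 cells, and 0 were lower. Over all detected genes 17.0% were higher and 23.6% lower. The 3 were Tyr, by 1.41, Mitf, by 0.93, and Slc45a2, by 0.70 on the log2 scale. Potassium channels are typical of neurons and muscle, so markers of these were read as well. Of 8 neuronal markers 2 were detected, Tubb3 and Map2, and of 7 muscle markers 2, Ckm and Des. Map2 differed by -0.70 and Des by -1.87, and both lie on chromosome 1. Des had 5.83 on the NRF3 array and 7.70 on the GFP array. It passed the detection floor of 5.89, explained below, by its GFP value alone. Its -1.87 is therefore no firm measure of a fall in expression. Map2 had 7.22 on the NRF3 array, under the upper quartile of 7.85 of the control rows described below. The part of these markers in the results on the channel genes was not tested. Snap25, Syt1, Rbfox3 and Nefl of neurons and Myh6, Myh7 and Acta1 of muscle were not detected. None of the 12 measured markers of leukocytes, endothelium, fibroblasts and epithelium was detected.

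Kcnj13 and Kcnab2, which encodes a beta subunit of voltage-gated channels, were the 2 members above the upper quartile of the array's control rows on both arrays, as given below, and their upstream sequences are shown for that reason. RefSeq (GRCm38.p6) gives 1 start for Kcnj13 and 3 for Kcnab2. For Kcnab2 the window printed is the one of the 3 that held a match to a searched motif. Each run is the 250 bases before the start, read 5′ to 3′ on the minus strand of the genome. The first lies at chr1:87394730-87394979 and the second at chr4:152477550-152477799.
Kcnj13: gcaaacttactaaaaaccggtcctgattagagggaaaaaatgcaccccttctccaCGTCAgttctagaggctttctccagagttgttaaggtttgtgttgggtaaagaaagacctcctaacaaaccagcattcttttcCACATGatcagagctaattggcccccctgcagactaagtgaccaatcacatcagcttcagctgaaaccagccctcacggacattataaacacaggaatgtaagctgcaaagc
Kcnab2: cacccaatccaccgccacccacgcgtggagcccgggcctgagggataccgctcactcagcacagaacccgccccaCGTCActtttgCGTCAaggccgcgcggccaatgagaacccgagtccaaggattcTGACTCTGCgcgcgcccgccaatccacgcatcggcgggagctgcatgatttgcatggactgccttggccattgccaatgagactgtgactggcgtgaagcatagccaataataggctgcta
Capitals mark matches on either strand to TGACNNNGC, CATGTG and TGACG. TGACNNNGC is the core of the antioxidant response element, to which cap'n'collar factors bind with small MAF proteins. CATGTG is an E-box of the type bound by MITF. TGACG is the run of letters with which the cAMP response element TGACGTCA begins. The Kcnj13 window held the E-box on the reverse strand, 112 to 107 bases before the start, and 1 match to TGACG at 195 to 191 bases. It held no match to the antioxidant core. The Kcnab2 window held the antioxidant core at 121 to 113 bases before the start and 2 matches to TGACG. No pair of these matches overlapped in the 2 windows printed.

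Such matches are common. The antioxidant core occurred in 10.2% of all 32851 upstream windows of this length, the E-box in 12.3% and TGACG in 17.8%. RefSeq windows were matched for 66 of the 87 members, 91 windows in all. Of these, 15 held the antioxidant core (16.5%), 2 the E-box (2.2%) and 14 TGACG (15.4%). The full cAMP response element TGACGTCA was found in none of the 91, against 1.55% of all windows. Kcnn1, a member described below, had the antioxidant core in both of its windows, and in one of them it overlapped a match to TGACG. A match is a description of letters in a window and not a binding site.

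Most potassium channel genes were not detected on either array. Detection was called at a floor of 5.89, the median over named probe sets, which at least 1 array had to reach. By this rule 9 of 87 members (10.3%) were detected, against 52.1% of all named genes. The remaining 78 had values of 2.50 to 5.88 on the NRF3 array and 2.54 to 5.75 on the GFP array. The floor is a convention rather than a background measured on these arrays. The 5222 control rows with neg in their names had upper quartiles of 7.85 on the NRF3 array and 7.52 on the GFP array. Both values lay above these quartiles for 2 members, Kcnj13 and Kcnab2 (2.3%), against 35.5% of all named genes. A further 23 rows, with BkGr in their names, had medians of 5.89 on the NRF3 array and 5.55 on the GFP array. Their highest values were 8.16 and 7.11, and the floor lies at the first of their medians. Apart from Kcnj13 and Kcnab2, every detected member lay under these highest values on both arrays. Expression of those members above background is therefore not shown.

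**Figure D1:**
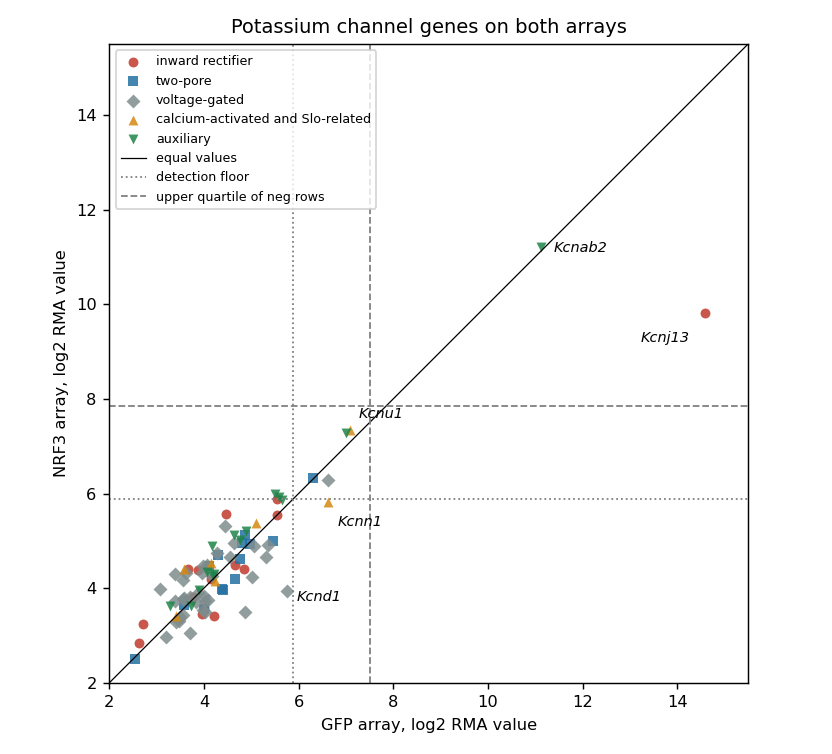
Log2 RMA values of the 87 potassium channel genes on the NRF3 array (vertical axis) and the GFP array (horizontal axis), 1 point per gene, with symbols for the channel class. Dotted lines show the detection floor of 5.89 and dashed lines the upper quartiles of the control rows named neg. Kcnj13 lies far below the line of equal values and Kcnab2 on it, while the other members crowd the lower left.

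Members near the floor fell on both sides of it by small margins. Kcnip4, a calcium sensor that binds channels of the Kcnd family, and Kcnmb2, a beta subunit of the large-conductance calcium-activated channel, had brighter values of 5.93 and 5.98 and were counted. Kcnj14, at 5.88, Kcnip3, at 5.87, and Kcnd1, at 5.75, were not. The count of 9 thus depends on the floor, whereas Kcnj13 and Kcnab2 lay far above it.

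**Figure D2:**
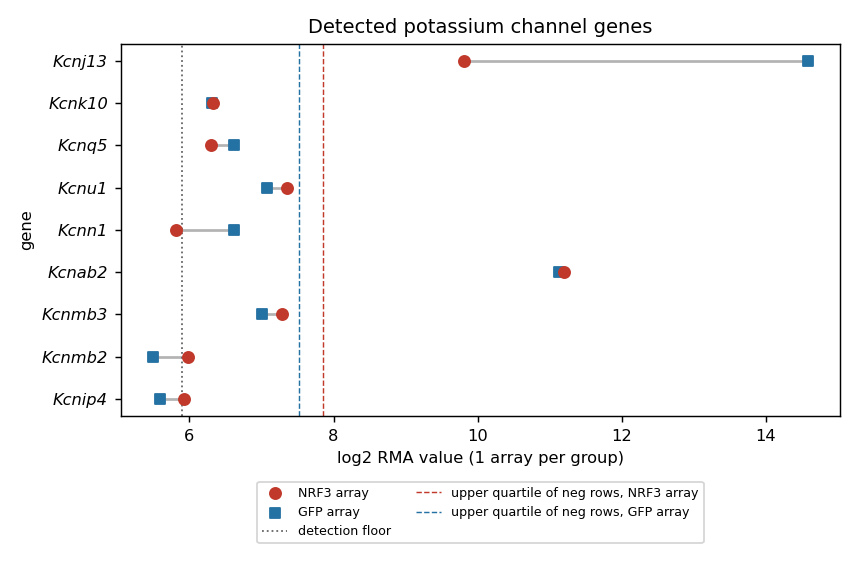
Log2 RMA values of the 9 detected potassium channel genes on the NRF3 array (circles) and the GFP array (squares), ordered by channel class. The dotted line is the floor of 5.89 and the dashed lines are the upper quartiles of the control rows named neg, 7.85 on the NRF3 array and 7.52 on the GFP array. Kcnj13 has widely separated values, and 7 of the 9 genes lie left of the dashed lines.

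The inward rectifier Kcnj13 (NCBI gene 100040591, chromosome 1) had a log2 value of 9.81 on the NRF3 array, against 14.6 on the GFP array. The difference was -4.77, which is 27.3-fold lower in the NRF3 cells on the deposited scale. Among the 10162 detected genes it was the 7th lowest difference. Of the control rows named neg, 7.68% reached the NRF3 value on the NRF3 array and 0.613% the GFP value on the GFP array. The NRF3 value is thus the nearer of the pair to the control rows.

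Kcnj13 lies on chromosome 1, whose detected genes were lower as a whole in the NRF3 cells, with a median difference of -0.51 over 552 genes. It had the lowest difference of these 552. With the chromosome's median subtracted it still differed by -4.26. In RefSeq (GRCm38.p6) Kcnj13 lies on the minus strand within the span of Gigyf2, a translational repressor gene on the plus strand. Gigyf2 had values of 8.45 on the NRF3 array and 8.43 on the GFP array, a difference of 0.017. The strand that the probe sets read is not given in the sources used here, so which of the overlapping transcripts each value reads was not tested. The 20 nearest detected genes, 10 on each side, differed by -1.73 to 1.05 with a median of -0.49. By the 1.5-fold rule used below, 9 of them were lower and 1 was higher, beside 23.6% and 17.0% of all detected genes. These shares were not computed for chromosome 1 alone.

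**Figure D3:**
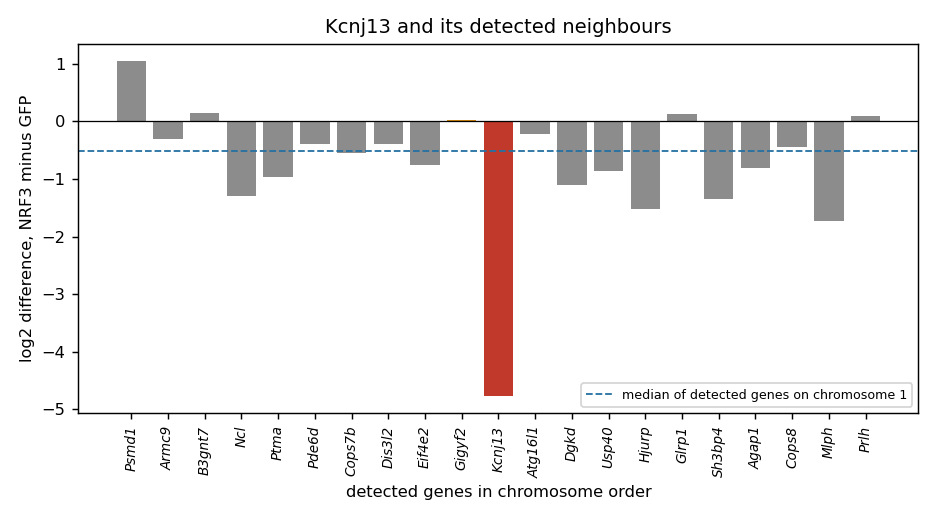
Log2 difference of NRF3 minus GFP for Kcnj13 and the 10 nearest detected genes on each side, in chromosome order. The dashed line is the median of -0.51 over the detected genes of chromosome 1. The bar of Kcnj13 reaches -4.77, its neighbours stay between -1.73 and 1.05, and that of the overlapping gene Gigyf2 lies at 0.017.

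None of the other 14 inward rectifier genes was detected. Their values ran from 2.84 to 5.88 on the NRF3 array and from 2.62 to 5.55 on the GFP array, with a median difference of 0.054. Kcnj2, a classical strong rectifier of heart and muscle, lay at 3.42 on the NRF3 array and 4.21 on the GFP array. Kcnj10, a channel of glia and kidney, lay at 4.38 on the NRF3 array and 3.88 on the GFP array. Kcnj8 and Kcnj11, the pore subunits of ATP-sensitive channels, lay at 5.54 and 4.41 on the NRF3 array and at 5.54 and 3.65 on the GFP array. The widest difference among the 14 was that of Kcnj12, at 1.10, with values of 5.57 on the NRF3 array and 4.47 on the GFP array. All of these values are under the floor, so their differences are not shown to be differences in expression. These and the other members under the floor that are named here were chosen after their values were seen.

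Of the two-pore genes 1 of 14 was detected. Kcnk10, a mechanosensitive channel of the TREK group, had 6.32 on the NRF3 array and 6.31 on the GFP array. The control rows named neg, whose nature is not given in the sources used here, had medians of 6.37 on the NRF3 array and 6.12 on the GFP array. The NRF3 value of Kcnk10 lay under the median and its GFP value just above it. The 13 others lay between 2.50 and 5.13 on the NRF3 array and between 2.54 and 5.47 on the GFP array. No two-pore gene differed by 1.5-fold either way. The lowest difference was -0.47, at Kcnk1, and the highest 0.41, at Kcnk9.

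The voltage-gated class was the largest and had the lowest share detected, 1 of 36. Kcnq5, a channel of the neuronal M current, had 6.29 on the NRF3 array and 6.61 on the GFP array, a difference of -0.32. It also lies on chromosome 1, and with the chromosome's median subtracted its difference was 0.19. Its NRF3 value lay under the median of the control rows named neg. The other 35 genes had medians of 3.90 on the NRF3 array and 3.97 on the GFP array. Kcnd1, of the A-type current, had 3.94 on the NRF3 array and 5.75 on the GFP array, a difference of -1.82. Kcnh2, the cardiac hERG channel gene, had 3.50 and 4.86 on these arrays, a difference of -1.37. Kcnh1 and Kcna3, channels widely studied in tumour cells and lymphocytes, lay at 3.50 and 3.71 on the NRF3 array and at 4.02 and 3.83 on the GFP array. All these values are under the floor.

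Apart from Kcnq5, every measured gene of the voltage-gated families lay under the floor. The 8 Kcnh genes, of the ether-a-go-go type, lay at 3.29 to 4.65 on the NRF3 array and 3.40 to 5.32 on the GFP array, and 6 of them had differences below 0, beside 4094 of all 9343 genes not detected. By the 1.5-fold rule 3 of the 8 were lower and 1 was higher, all under the floor, beside 8.29% and 12.9% of all genes not detected. The family was picked out after its values were seen. The 4 Kcng, 3 Kcns and 2 Kcnv genes and Kcnf1, which encode silent subunits that form channels with other alpha subunits, lay at 2.98 to 5.32 on the NRF3 array and 3.20 to 5.06 on the GFP array. Kcns3, with 5.32 on the NRF3 array and 4.44 on the GFP array, had the widest positive difference of these, 0.88. The A-type relatives Kcnd2 and Kcnd3 had 3.81 and 4.26 on the NRF3 array and 3.71 and 4.17 on the GFP array. The Shaw-type genes Kcnc1, Kcnc2 and Kcnc4 lay at 3.43 to 4.30 on the NRF3 array and 3.39 to 3.997 on the GFP array, and the delayed rectifier gene Kcnb2 at 3.80 and 3.58.

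Of the 7 calcium-activated and Slo-related genes 2 were detected, both on chromosome 8 and both under the upper quartile of the control rows. Kcnma1, the pore subunit gene of the large-conductance channel, was not among the measured members, so its expression is not described here. Kcnn1, a small-conductance calcium-activated channel, had 5.82 on the NRF3 array and 6.62 on the GFP array, a difference of -0.80, or 1.74-fold lower. Its NRF3 value was under the floor, so the size of this difference depends on background. Kcnu1, the sperm channel Slo3 that is gated by alkaline pH, had 7.35 on the NRF3 array and 7.08 on the GFP array, a difference of 0.27. Detected genes of chromosome 8 were higher as a whole, with a median of 0.56 over 549 genes. Relative to that median Kcnn1 lay at -1.36 and Kcnu1 at -0.29, so the direction of Kcnu1 depends on this subtraction. Kcnn4, the intermediate-conductance channel of lymphocytes and red cells, lay at 4.15 on the NRF3 array and 4.23 on the GFP array, under the floor.

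Auxiliary subunits had 4 of 15 genes detected. Kcnab2 (NCBI gene 16498, chromosome 4) encodes a cytosolic beta subunit with an aldo-keto reductase fold. It had 11.2 on the NRF3 array and 11.1 on the GFP array, a difference of 0.071. Its relatives Kcnab1 and Kcnab3 lay under the floor, at 4.34 and 3.62 on the NRF3 array and at 4.06 and 3.73 on the GFP array. Kcnmb3, a beta subunit of the large-conductance calcium-activated channel, had 7.28 on the NRF3 array and 7.001 on the GFP array, a difference of 0.28. Kcnmb2 had 5.98 and 5.50, a difference of 0.48, and Kcnip4 had 5.93 and 5.59, a difference of 0.34. These last 3 genes lay under the upper quartile of the control rows on both arrays, and the GFP values of Kcnmb2 and Kcnip4 were under the floor. Both values of Kcnmb2 and of Kcnip4 also lay under the medians of those rows, so neither gene is shown to be expressed. The pore-forming voltage-gated alpha subunits that Kcnab2 is known to bind, those of the Kcna family, were all under the floor, with values of 3.30 to 4.91 on the NRF3 array and 3.07 to 5.35 on the GFP array.

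By a rule of size of at least 1.5-fold, 0 of the 9 detected members had a higher value on the NRF3 array, against 17.0% of all detected genes. On the other side 2 of 9, Kcnj13 and Kcnn1, were lower, against 23.6%. At 2-fold 0 of 9 were higher, against 6.75% of detected genes, and Kcnj13 alone was lower, against 11.0%. With 9 genes these shares do not set the members apart from the rest. The median difference was 0.071 over the 9 detected members and -0.074 over all detected genes. By class the detected members gave -4.77 for the 1 inward rectifier, 0.012 for the 1 two-pore gene and -0.32 for the 1 voltage-gated gene. The 2 calcium-activated and Slo-related genes had a median of -0.26 and the 4 auxiliary genes one of 0.31. Kcnmb2 and Kcnip4 passed the floor by their NRF3 values alone, and Kcnn1 by its GFP value alone. The detection rule thus favoured the signs of these differences, and the medians of these classes are not free of it. Apart from Kcnj13, no class held a detected member that differed by 2-fold.

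Over all measured members, detected or not, the class medians were 0.052 for inward rectifiers, -0.037 for two-pore genes and -0.11 for voltage-gated genes. They were 0.27 for calcium-activated and Slo-related genes and 0.27 for auxiliary genes, of which 14 of 15 had differences above 0, 10 of them under the floor, beside 9872 of all 19505 named genes and 5218 of the 9343 not detected. Below the floor such values describe the low end of the scale as well as the genes. The 78 members not detected had a median of 0.056, with quartiles of -0.22 and 0.33. All 9343 named genes not detected had a median of 0.069, with quartiles of -0.23 and 0.37. Past 1.5-fold, 9 of the 78 lay on the higher side (11.5%) and 6 on the lower (7.69%), against 12.9% and 8.29% of all genes not detected.

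**Figure D4:**
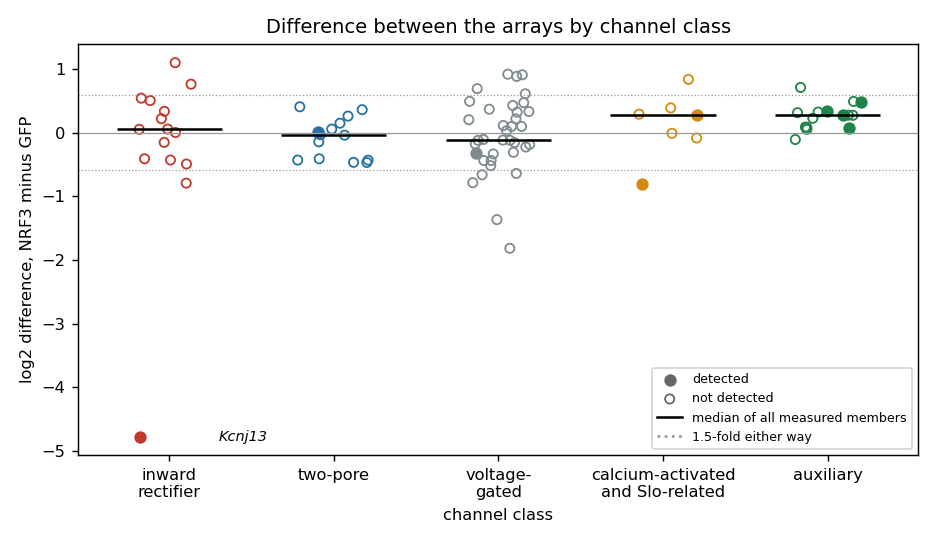
Log2 difference of NRF3 minus GFP for each of the 87 potassium channel genes, by channel class. Filled points are detected genes, open points are genes under the floor, bars are medians of all measured members and dotted lines mark 1.5-fold either way. Kcnj13 stands alone at -4.77, and the class medians lie between -0.11 and 0.27.

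Other genes of potassium handling were read from a list with 28 measured genes, of which 11 were detected. By the 1.5-fold rule 3 of the 11 were higher in the NRF3 cells and 4 lower, and their median difference was -0.15, beside 17.0% and 23.6% of all detected genes. None of the channel partners was detected. These were the sulphonylurea receptors Abcc8 and Abcc9, which complete ATP-sensitive channels, 4 gamma subunits of the large-conductance channel, Dpp6 and Dpp10 of A-type channels, and Kcnrg. The related Hcn2, Hcn3 and Hcn4 were not detected either.

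Tmem175, a potassium channel of endosomes and lysosomes that is no member by its symbol, had 11.2 on the NRF3 array and 10.3 on the GFP array, 1.97-fold higher. Lrrc8d, a subunit of the volume-regulated anion channel, had 10.3 on the NRF3 array and 12.4 on the GFP array, 4.30-fold lower. The other detected subunits of that channel, Lrrc8a, Lrrc8b and Lrrc8c, differed by -0.15, 0.078 and -0.34. All these values lay above the upper quartiles of the control rows.

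Among the potassium-chloride cotransporters, Slc12a7 had 12.2 on the NRF3 array and 11.3 on the GFP array, 1.88-fold higher. Slc12a4, which lies on chromosome 8, had 8.79 and 7.09, a difference of 1.69, and its GFP value lay under the upper quartile of the control rows. Slc12a5, the neuronal form, had 4.79 and 6.19, and its NRF3 value lay under the floor. The sodium-potassium-chloride cotransporter Slc12a2 differed by -0.59, at the edge of the 1.5-fold rule. Of the sodium-potassium pump, the beta subunit Atp1b3 had 14.7 on the NRF3 array and 14.4 on the GFP array. The beta subunit Atp1b2 had 3.86 on the NRF3 array and 7.81 on the GFP array, a difference of -3.95 whose size depends on background, because its NRF3 value lay under the floor.

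**Figure D5:**
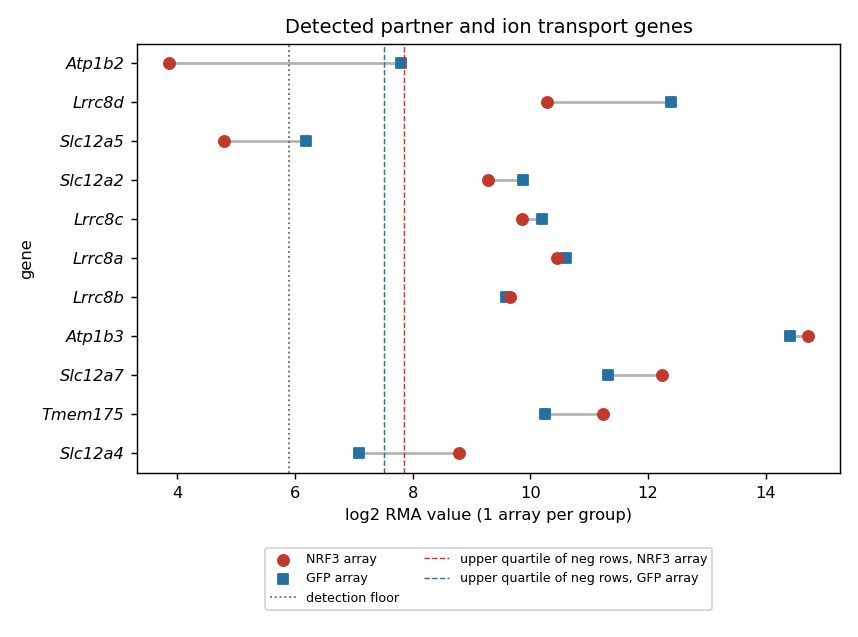
Log2 RMA values of the 11 detected partner and ion transport genes on the NRF3 array (circles) and the GFP array (squares), ordered by their difference. The dotted line is the floor of 5.89 and the dashed lines are the upper quartiles of the control rows named neg. Lrrc8d, Tmem175 and Slc12a7 differ with both values right of the dashed lines, whereas the NRF3 values of Atp1b2 and Slc12a5 lie left of the floor.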

How the data were processed

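The authors deposited log2 values for each probe set, made with Affymetrix Expression Console and RMA, per the submitters' processing notes. Versions, background settings and build: not given in the sources used here. Of 28846 rows, 19572 carried 1 gene symbol in the platform annotation, which gave 19505 genes after the probe set with the highest mean was kept. All 87 members matched a RefSeq gene number and symbol (GRCm38.p6).

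Differences, medians and counts were computed with Python 3.11.15, pandas 2.3.3 and numpy 2.4.6, and the scalings were tested on simulated data. In the simulation all genes were given the same chromosome. Subtracting a chromosome's median was therefore tested there only as centring on the median of all detected genes. With 1 array per group no test was made. The genes named with values were all detected members, plus examples under the floor. The members and lists were chosen with earlier results of these data known, and the motifs other than the antioxidant core were chosen after the sequences were seen. Alternatives were other floors, fold rules, scalings and member sets.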

Additional observations from a re-analysis of the deposited data

How the results depend on the processing

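Counts that moved by over 1.5 times and class medians that moved by over 0.1 on the log2 scale are given here, with single genes at the end. Of 136 values under 15 alternatives, 97 moved by less. Part of these could not move. Each member has 1 probe set, so a mean over probe sets repeats the main values. Median-centring shifts every difference by 0.074, under the limit of 0.1, and the mean of 1 or 2 members equals their median. Under the 5 scalings and probe rules applied to genes, Kcnj13 ran from -4.77 to -4.26 and Kcnn1 from -1.36 to -0.72. Neither gene, both past 1.5-fold, changed sign. For neither gene could these shifts bring that about. Those of Kcnj13 were small beside its difference. The largest shift of Kcnn1, to -1.36, made its difference more negative, and its other shifts were small. With the floor at the upper quartile of the control rows named neg, or at the 75th percentile of named values, 2 members were detected and 1 was lower, Kcnj13, with an all-class median of -2.35 and an auxiliary median of 0.071. With the floor at the median of those rows the auxiliary median was 0.18. With no floor 87 genes counted, 9 higher and 8 lower, with medians of 0.052 for inward rectifiers, -0.11 for voltage-gated and 0.27 for calcium-activated genes. At 2-fold 1 was lower, and at the smallest fold rule tried 2 were higher. With chromosomes 1 and 8 left out 0 were lower, the all-class median was 0.28, and no inward rectifier, voltage-gated or calcium-activated gene was left. With the chromosome's median subtracted, class medians were -4.26 (inward rectifier), 0.17 (two-pore), 0.19 (voltage-gated) and -0.83 (calcium-activated). Quantile normalization moved the median of all detected genes by 0.10 and gave -0.16 for calcium-activated genes. Leaving out the farthest member gave 0.27 for that class. Its 2 detected members lie equally far from their median, so which of them is left out is arbitrary. Leaving out Kcnu1 in place of Kcnn1 would give -0.80. A mean in place of the all-class median gave -0.49. Classes without a detected member under an alternative gave no value. Subtracting the chromosome's median gave 0.33 for Kcnab2, 0.20 for Kcnip4, 0.17 for Kcnk10, 0.32 for Kcnmb2, 0.12 for Kcnmb3, 0.19 for Kcnq5 and -0.29 for Kcnu1. Quantile normalization and the lowess trend gave 0.43 and 0.39 for Kcnmb3 and 0.44 and 0.38 for Kcnu1. No paired analysis was possible because each group has 1 array.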
